A study of Mus musculus with 2 samples.

Results

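Red cells carry blood group antigens on a set of membrane proteins, and 8 genes of such proteins were followed here through erythropoiesis in the mouse fetal liver: Rhd, Rhag, Gypc, Kel, Xk, Ermap, Aqp1 and Cd44. They were found by symbol among the 27998 genes of the count tables, and all 8 were present once. The data are droplet-based scRNA-seq of wild-type C57BL/6 liver at E12.5, the time when the liver is the main site of blood formation. A suspension of 1 liver was sorted by FACS to remove debris, dead cells and doublets, and was then encapsulated as 2 technical replicate libraries, while the text of the series speaks of 2 suspensions. No condition, genotype or second animal was compared, so no test between samples was possible and no p-value is given.

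The Rh proteins (Rhd) sit in the membrane together with the Rh-associated glycoprotein (Rhag), which transports ammonia and gases and is needed for the Rh antigens to reach the surface. Glycophorin C (Gypc, the Gerbich antigens) fastens the membrane to the spectrin skeleton, Kel is a zinc endopeptidase of the surface, and Xk is the membrane protein to which it is bound by a disulfide bond. Ermap (Scianna) is an immunoglobulin-like protein of erythroid cells, Aqp1 (Colton) is a water channel, and Cd44 (Indian) is a receptor for hyaluronan that is lost during erythroblast maturation. Antigens of these proteins are used in transfusion typing, and the genes are studied as markers of red cell maturation.

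Unique molecular identifiers (UMIs), which count captured RNA molecules, were summed per group of cells and divided by all UMIs of the group, then scaled to 1000000 UMIs (CPM). The kept cells numbered 5480 with 51969226 UMIs in library 1 and 5057 with 62738015 UMIs in library 2, and the libraries shared 31 cell barcodes. The median cell had 6261 and 9774 UMIs and the shallowest 504 and 4387. All intervals are exact 95% intervals of the counting error alone, since the cells of 1 liver do not replicate it. The names of the groups are those of the deposited table: hematopoietic stem and progenitor cells (HSPC), erythroid-committed progenitors (Ery, subclusters Ery 1 and Ery 2), erythroblasts (Eryb, Ery 3 to Ery 6), yolk sac-derived primitive erythroblasts (EryP), granulocytes (G), megakaryocytes (Mk), monocytes and Kupffer cells (Mo/KC), endothelial cells (EC) and hepatoblasts (Hepa). The table spells the first of them HPSC. In library 1 markers of these cell types were present under their names. Myb was at 119 CPM in HSPC, Klf1 at 440 CPM in Ery 1, Pf4 at 10364 CPM in Mk and Cldn5 at 855 CPM in EC. Alb was at 12595 CPM in Hepa and Hba-x at 61938 CPM in EryP. The paper's markers Ly6g and Fcgr1 were at 74.5 CPM in G and 228 CPM in Mo/KC. Elane was at 1159 CPM in G and 324 CPM in Mo/KC, and Csf1r at 385 CPM in Mo/KC. Myb was as high in G as in HSPC, at 140 CPM, and close to it in Ery 1, at 107 CPM. Kit (53.6 CPM) and Cd34 (384 CPM) were highest in HSPC. Gata2 was not, at 42.3 CPM in HSPC, 55.0 in G and 96.1 in Mk. Mpo was at 4502 CPM in G but also at 740 CPM in HSPC and 675 CPM in Mo/KC. In library 2 Ly6g was at 26.4 CPM in G.

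Along the erythroid groups the amount of RNA fell while its composition turned to globin. The median number of UMIs per cell was 26146 in Ery 1 and 4378 in Ery 6 of library 1, and 25977 and 7882.5 in library 2. The adult globins took 1.02% of UMIs in Ery 1 and 57.0% in Ery 6 of library 1, but 2.32% and 77.9% in library 2. In EryP all globins together took 76.7% and 82.5%. For this reason each level is given as CPM and, where the picture differs, also as CPM after leaving out all globin UMIs and as mean UMIs per cell. Clusters were made by the authors from the most variable genes of these data, and which members were among those is not known. Rhd was among the genes by which they told Ery from Eryb, so differences between clusters are descriptions.

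The 250 bases before the RefSeq start of 5 of the genes are shown. They were chosen because 4 of them (Rhd, Rhag, Kel and Ermap) hold a GATA motif near the start. The window of Aqp1, which was highest in Ery 2 in CPM, is set beside them and holds none. Per cell, Ermap was highest in Ery 1 in both libraries, no later than Aqp1. Not shown are the windows of Xk, which peaked late in CPM and holds none, and of Cd44, which peaked in HSPC and holds 1. All come from the RefSeq promoter table of build GRCm38.p6, which holds 7 of the 8 members. Each is read 5′ to 3′ on the strand of the gene: Rhd at chr4:134864286-134864535 (plus strand), Rhag at chr17:40810899-40811148 (plus), Kel at chr6:41704326-41704575 (minus), Ermap at chr4:119189996-119190245 (minus) and Aqp1 at chr6:55336049-55336298 (plus). Capitals mark letters of a GATA motif (the letters AGATAA, the letters AGATAG, the letters TGATAA or the letters TGATAG, on either strand). They also mark the pattern CCNCNCCC on either strand, a looser form of the CACCC element that can match without the letters CACCC.
Rhd: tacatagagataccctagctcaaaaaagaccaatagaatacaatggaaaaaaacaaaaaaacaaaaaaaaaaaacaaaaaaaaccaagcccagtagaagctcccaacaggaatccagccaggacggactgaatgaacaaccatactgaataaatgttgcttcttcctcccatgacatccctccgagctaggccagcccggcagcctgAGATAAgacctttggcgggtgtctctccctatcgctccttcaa
Rhag: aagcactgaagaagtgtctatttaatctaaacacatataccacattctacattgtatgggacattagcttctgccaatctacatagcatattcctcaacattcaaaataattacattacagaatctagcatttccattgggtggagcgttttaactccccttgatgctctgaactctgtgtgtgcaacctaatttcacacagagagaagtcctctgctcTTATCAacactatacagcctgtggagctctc
Kel: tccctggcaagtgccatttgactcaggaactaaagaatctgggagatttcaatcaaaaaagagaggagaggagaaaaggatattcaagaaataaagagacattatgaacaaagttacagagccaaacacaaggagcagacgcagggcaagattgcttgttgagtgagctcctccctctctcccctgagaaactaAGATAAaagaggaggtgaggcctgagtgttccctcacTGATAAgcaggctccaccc
Ermap: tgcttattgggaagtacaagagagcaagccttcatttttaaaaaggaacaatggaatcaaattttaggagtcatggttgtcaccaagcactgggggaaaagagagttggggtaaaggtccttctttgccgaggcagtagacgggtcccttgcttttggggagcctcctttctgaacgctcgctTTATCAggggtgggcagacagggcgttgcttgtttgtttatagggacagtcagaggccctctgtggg
Aqp1: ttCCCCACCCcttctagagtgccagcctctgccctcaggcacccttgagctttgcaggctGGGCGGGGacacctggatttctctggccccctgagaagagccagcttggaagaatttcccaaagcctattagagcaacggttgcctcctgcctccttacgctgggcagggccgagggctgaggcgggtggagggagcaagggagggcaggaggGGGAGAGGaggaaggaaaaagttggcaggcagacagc

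Of the 6 members that peaked in CPM in Ery 4, Ery 5 or Ery 6, 4 had a GATA motif in the window, Xk had none and Gypc has no entry. In Rhd its first base lay 43 bases before the start, in Rhag 31 and in Ermap 67. Kel had 2 such matches, which began 56 and 19 bases before the start. The windows of Xk and Aqp1 held none, and that of Cd44 held 1, which began 233 bases before the start. Of all 32817 promoter windows of this length, 26.6% held a GATA motif. CCNCNCCC matches were found in Xk, Aqp1 and Cd44 and not in the other 4 windows, against 45.9% of all windows. Some of these matches, in Xk and Cd44, were runs of G. The letters CACCC alone were not counted, and on either strand they also occur in the printed windows of Rhd, Rhag, Kel and Ermap. The bases G and C made up 43.6% of the window of Rhd, 39.2% of Rhag, 45.6% of Kel and 49.2% of Ermap. They made up 77.2% in Xk, 62% in Aqp1 and 56.4% in Cd44. The shares of all windows were not matched for this composition. Matches are descriptions of letters, and neither binding nor chromatin was measured. In the transcripts of the GENCODE vM21 annotation, the 50 bases that follow each start were found in 6 of the 7 genes, within 28 bases of the transcript's first base. The exception was Aqp1, whose RefSeq start lies upstream of the annotated gene, so its window does not reach the annotated start.

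By the position along HSPC, Ery 1 to Ery 6 at which CPM first reached 50% of its highest value, the members fell into 3 kinds. Cd44 was already above that level in HSPC, where its CPM was highest. Aqp1 passed it between HSPC and Ery 1, at a mean position of 0.81 on a scale where HSPC is 0 and Ery 6 is 6. The other members passed it later, in the order Ermap (1.77), Xk (1.99), Gypc (2.01), Rhag (2.22), Rhd (2.71) and Kel (2.73). The libraries differed within this order, since Ermap was at 2.48 in library 1 and 1.06 in library 2, and Xk at 2.32 and 1.66. In library 1 Rhd (2.97) came just after Kel (2.96), and in library 2 Gypc (1.62) came just before Xk.

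**Figure D1:**
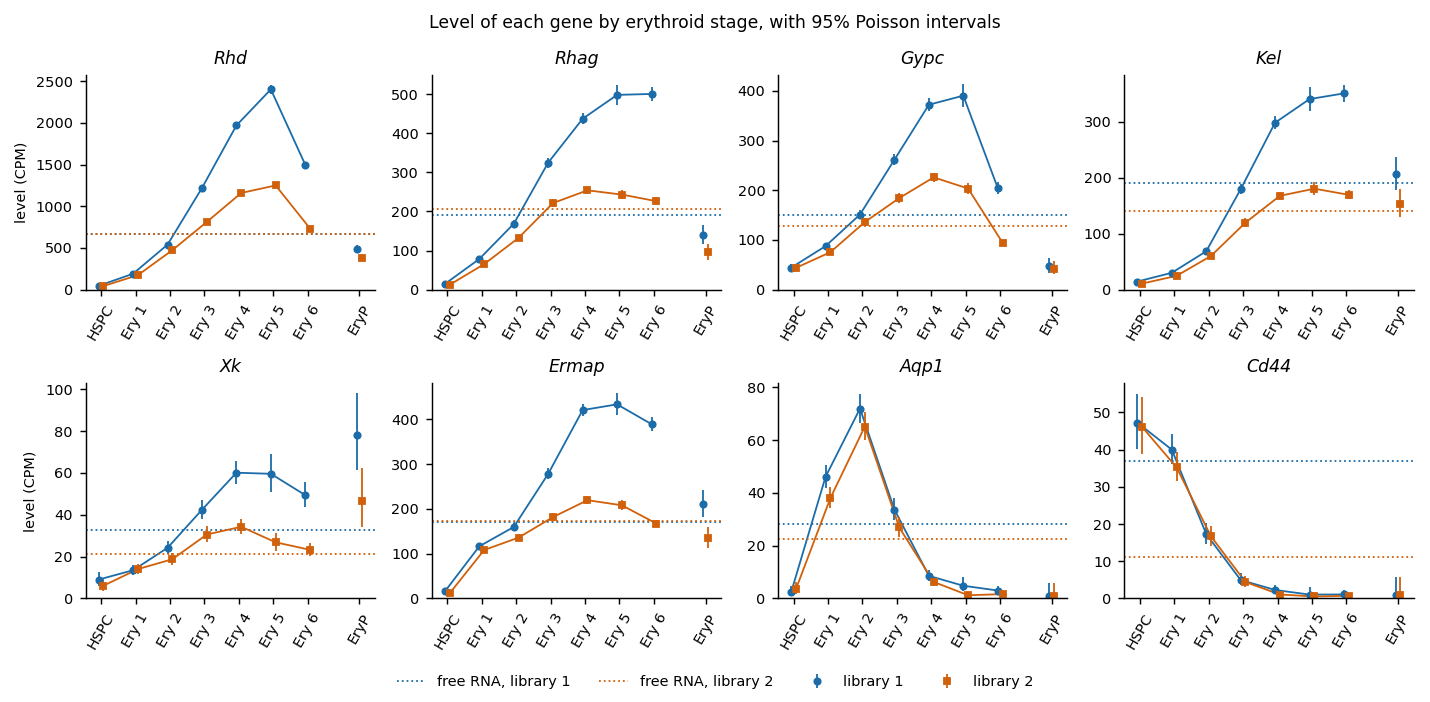
Level of each gene in CPM (vertical axis, linear) in HSPC, Ery 1 to Ery 6 and EryP. Points are libraries, bars are exact 95% Poisson intervals, and dotted lines give the level in barcodes with 1 to 50 UMIs (free RNA). From HSPC to Ery 6, Cd44 was highest in HSPC and Aqp1 in Ery 2, and the other genes in Ery 4, Ery 5 or Ery 6. In EryP the level of Xk, on 75 and 45 UMIs, was above those of all these groups, with intervals that overlapped those of Ery 4.

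Leaving globin out of the total brought the libraries closer, with Rhd in Ery 5 at 4918 and 4689 CPM against 2403 and 1251 CPM with globin, and changed the order. Whether the globin share accounts for the gap between the libraries was not tested. On that scale the mean position was 0.84 for Aqp1, 3.27 for Xk, 3.39 for Gypc, 3.46 for Ermap, 3.69 for Rhd, 3.73 for Rhag and 3.90 for Kel. On both scales Kel was last by this mean, Aqp1 first among the rising genes and Cd44 at 0. Ermap moved from the third to the fifth place of the 8. Per cell the order was another, and Aqp1 was not first among the rising genes. There Xk was at 0.35 and 0.38 in libraries 1 and 2, Gypc at 0.40 and 0.49 and Ermap at 0.45 and 0.47. Aqp1 followed at 0.48 and 0.61, Rhag at 0.78 and 0.81, Rhd at 1.52 and 1.38 and Kel at 1.62 and 1.51. By Ery 2, 2 members had reached 50% of their highest CPM in library 1 and 6 in library 2, where 90.0% and 94.8% of all 5314 genes over 10 CPM had. Most genes thus reached this level early, and 6 of the members did not in library 1.

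Rhd, the carrier of the Rh antigens, peaked in CPM at 52.5 times its level in HSPC in library 1 and at 28.9 times in library 2. Per cell it peaked at 19.0 and 19.1 times that level. In library 1 its level was 45.8 CPM in HSPC, 191 in Ery 1, 540 in Ery 2, 1220 in Ery 3, 1970 in Ery 4, 2403 in Ery 5 and 1498 in Ery 6. In library 2 it was 43.2, 174, 474, 812, 1160, 1251 and 732 CPM in the same order. In CPM it rose at each step up to Ery 5 in both libraries and was lower in Ery 6, by a ratio of 0.62 (95% interval 0.60 to 0.64) in library 1 and 0.59 (0.57 to 0.60) in library 2. This fall was seen on each scale: without globin the ratio of Ery 6 to Ery 5 was 0.73 in both libraries, and per cell the mean went from 14.1 to 7.001 UMIs in library 1 and from 12.4 to 6.17 in library 2. In HSPC the level of Rhd was within what free RNA could give, at most 50.9 CPM in library 1 and 44.2 CPM in library 2. That limit takes all Hbb-bs reads of a group as free RNA. It rests on barcodes with 1 to 50 UMIs, which held Rhd at 671 and 666 CPM in libraries 1 and 2. Barcodes with 51 to 100 UMIs held Rhd at 312 and 475 CPM, and limits from these were not computed.

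Ery is the class that the authors describe as lacking Rhd. In these counts it held Rhd at 359 and 319 CPM (351 to 368 and 311 to 328) in libraries 1 and 2. Free RNA could give at most 66.7 and 70.6 CPM there. After thinning every cell to 3600 UMIs, 40.0% of Ery 1 cells of library 1 had a Rhd UMI (95% interval 35.0 to 45.2%) and 39.9% of those of library 2 (34.7 to 45.1%), and without thinning 81.6% and 81.3% did. The share in G, which should lack the gene, was 11.3% and 12.8% after thinning, with a median depth of 10550 and 14769 UMIs against 26146 and 25977 in Ery 1. In Ery 2 the thinned share was 78.1% and 74.7%, and in Ery 5 it was 99.96% and 98.1%, so Rhd was found in nearly every Ery 5 cell at this depth. In library 1, 155 of the 557 Ery 2 cells had fewer UMIs and were left out, so the thinned share there describes the deeper cells only. Without thinning, 72.0% of all Ery 2 cells of library 1 had a Rhd UMI, against 93.9% of those of library 2. The number of Rhd UMIs in an unthinned Ery 1 cell of library 1 had a median of 4, an upper decile of 12 and a maximum of 39.

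Rhag, the partner of Rhd, rose with it but did not fall in the same way. Its level in library 1 was 14.5 CPM in HSPC, 78.4, 168, 325, 437 and 498 in Ery 1 to Ery 5 and 500.1 in Ery 6. In library 2 it was 12.48, 65.3, 132, 221, 254, 243 and 226 CPM. From Ery 5 to Ery 6 its ratio was 1.005 (0.94 to 1.07) and 0.93 (0.87 to 0.995), and without globin 1.17 and 1.15. Per cell Rhag was highest in Ery 3, at 3.34 and 2.81 UMIs, and had 2.34 and 1.90 UMIs in Ery 6.

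The number of Rhd UMIs per Rhag UMI, which does not depend on the total of the cells, followed an arch that was nearly the same in both libraries. It was 2.44 (2.24 to 2.66) in Ery 1 of library 1, then 3.21, 3.76, 4.51 and 4.83 (4.56 to 5.11) in Ery 5, and 2.995 (2.87 to 3.13) in Ery 6. In library 2 it was 2.67 (2.43 to 2.94), 3.58, 3.67, 4.57, 5.15 (4.86 to 5.45) and 3.24 (3.09 to 3.40). The intervals of Ery 5 and of Ery 6 did not overlap in either library, nor did those of Ery 1 and Ery 5. Free RNA had ratios of 3.51 and 3.23. These are ratios of captured UMIs and say nothing of the ratio of the proteins or of transcripts.

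**Figure D2:**
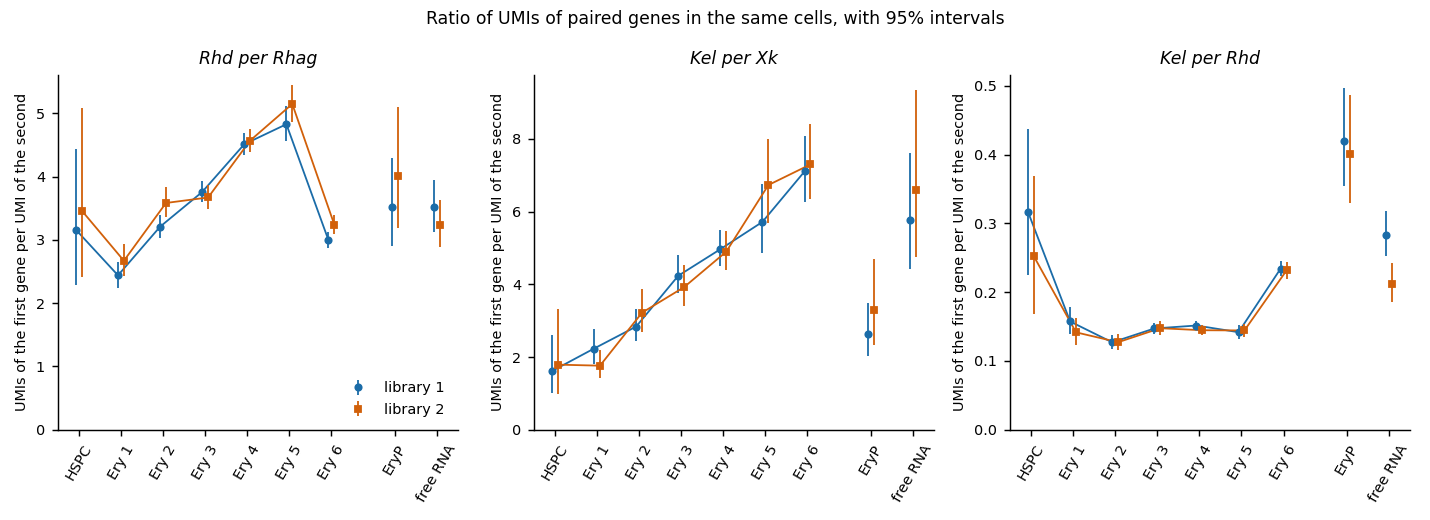
UMIs of Rhd per UMI of Rhag, of Kel per UMI of Xk, and of Kel per UMI of Rhd (vertical axes, linear) in HSPC, Ery 1 to Ery 6, EryP and barcodes with 1 to 50 UMIs. Points are libraries and bars exact 95% intervals. Rhd per Rhag peaked in Ery 5 and was lower in Ery 6, Kel per Xk was highest in Ery 6, and Kel per Rhd was highest in EryP, at 0.42 and 0.40.

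Kel and Xk, whose proteins form 1 complex, did not keep a fixed ratio. Kel was at 14.5 CPM in HSPC of library 1, 30.1, 68.6, 180, 298 and 341 CPM in Ery 1 to Ery 5 and 351 in Ery 6. Library 2 gave 10.9, 24.7, 60.3, 120, 168, 180 and 169 CPM. From Ery 5 to Ery 6 the ratio of Kel was 1.20 and 1.16 without globin, but 0.82 and 0.80 per cell. Kel was the member with the largest ratio of Eryb to Ery, at 5.72 and 3.80 in libraries 1 and 2, and its level in HSPC was at the limit for free RNA (14.4 and 9.37 CPM). Xk was scarce throughout, with 8.99 CPM in HSPC, 13.5, 24.2, 42.4, 60.1 and 59.6 CPM in Ery 1 to Ery 5 and 49.4 in Ery 6 of library 1. In library 2 it was 6.08, 14.0, 18.7, 30.5, 34.2, 26.8 and 23.2 CPM. Unlike Kel, its intervals in HSPC, 6.11 to 12.8 and 3.66 to 9.50 CPM, lay above the limits for free RNA of 2.50 and 1.42 CPM.

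Kel UMIs per Xk UMI numbered 2.23 (1.81 to 2.76) in Ery 1 of library 1 and 7.11 (6.27 to 8.08) in Ery 6, with 2.84, 4.24, 4.97 and 5.72 in between. In library 2 the ratio was 1.76 (1.41 to 2.20) in Ery 1 and 7.30 (6.36 to 8.42) in Ery 6, with 3.22, 3.92, 4.90 and 6.73 in between. Each of the 5 steps was upward in both libraries, although the intervals of neighbouring groups often overlapped. In EryP the ratio was 2.64 (2.01 to 3.49) and 3.29 (2.34 to 4.70), below that of Ery 6 and of free RNA (5.77 and 6.60).

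Gypc, the anchor of the membrane skeleton, showed the largest fall from Ery 5 to Ery 6 among the 6 members that peaked late. Its level was 44.1, 87.6, 151, 261, 372, 390 and 204 CPM from HSPC to Ery 6 in library 1, and 43.8, 75.4, 136, 184, 226, 203 and 94.5 CPM in library 2. From Ery 5 to Ery 6 the ratio was 0.52 (0.48 to 0.57) and 0.46 (0.43 to 0.51), and without globin 0.61 and 0.58. Per cell, Gypc stayed within 1.95 and 2.69 UMIs from Ery 1 to Ery 5 of both libraries. It had 2.31 and 1.95 UMIs in Ery 1, 2.69 and 2.34 in Ery 3, 2.29 and 2.02 in Ery 5 and 0.96 and 0.80 in Ery 6. Gypc also had a level in HSPC above the limit for free RNA of 11.4 and 8.42 CPM. The ratio of Gypc to Rhag UMIs, added after these values were seen, fell from 1.12 and 1.16 in Ery 1 to 0.41 and 0.42 in Ery 6.

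Ermap, the immunoglobulin-like protein of erythroid cells, was at 15.7 CPM in HSPC and 116 in Ery 1 of library 1, and at 11.5 and 108 CPM in library 2, a step of 7.44-fold and 9.39-fold. Its intervals in HSPC, 11.8 to 20.4 and 8.07 to 15.95 CPM, held the limits for free RNA of 12.96 and 11.4 CPM, so that the size of this step rests on a level that free RNA could give. Each later step was at most 1.74-fold, and its level was 160, 278, 421, 434 and 389 CPM in Ery 2 to Ery 6 of library 1 and 136, 182, 219, 208 and 167 CPM in library 2. Per cell it was highest in Ery 1, at 3.07 (2.89 to 3.25) and 2.80 (2.63 to 2.98) UMIs, and lowest of the 6 subclusters in Ery 6, at 1.82 and 1.41 UMIs. The direction from Ery to Eryb therefore turned with the scale for Ermap, from ratios of 2.69 and 1.60 in CPM to 0.84 and 0.71 per cell. The same held for Gypc, with 2.54 and 1.68 in CPM but 0.79 and 0.75 per cell, and for Xk, with 2.79 and 1.79 but 0.87 and 0.80. Rhd, Rhag and Kel kept a ratio above 1 on each of the 3 scales in both libraries.

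**Figure D3:**
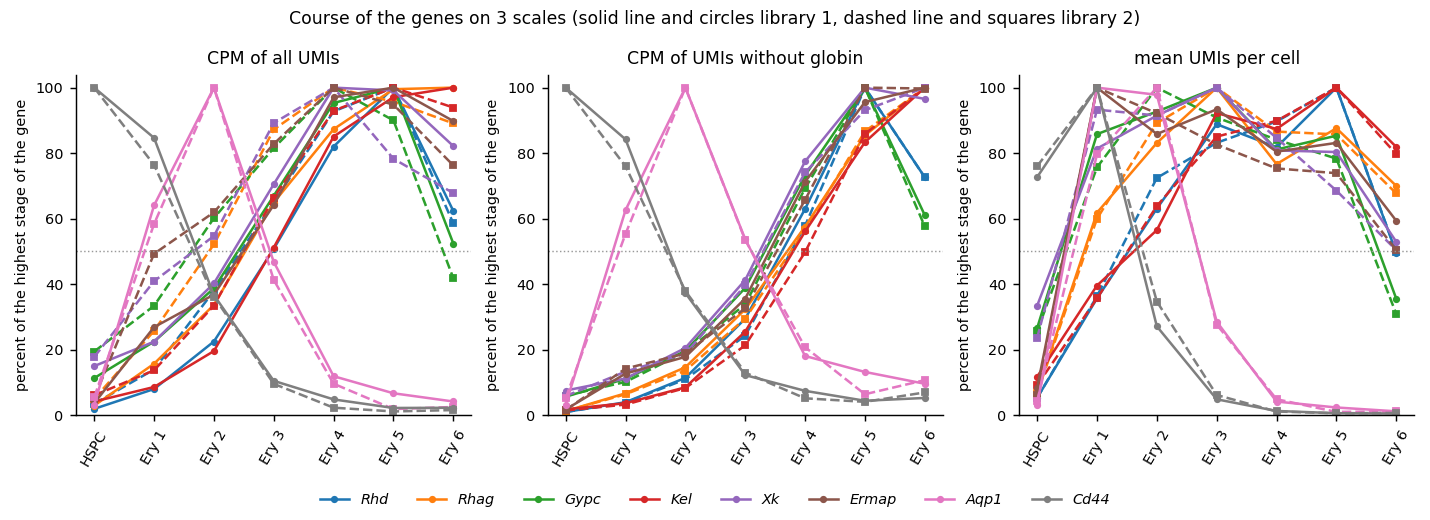
Course of the 8 genes from HSPC to Ery 6 as percent of the highest group of each gene (vertical axis), in CPM, in CPM without globin and in mean UMIs per cell. Solid lines are library 1 and dashed lines library 2. Per cell, Ermap was highest in Ery 1, Rhag in Ery 3 and Rhd in Ery 5 in both libraries.

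Aqp1 marked a short window. Its level was 2.32 CPM in HSPC of library 1, 46.1 in Ery 1, 72.0 in Ery 2, 33.7 in Ery 3, 8.55 in Ery 4, 4.79 in Ery 5 and 2.99 in Ery 6. In library 2 it was 3.52, 38.0, 65.1, 26.9, 6.24, 1.19 and 1.62 CPM. It was highest in Ery 2 on the CPM scale with and without globin in both libraries, and per cell it had 1.21 and 0.98 UMIs in Ery 1, 1.19 and 1.24 in Ery 2 and 0.014 in Ery 6 of both. At 3600 UMIs, 20.1% (16.3 to 24.4%) of Ery 2 cells of library 1 and 17.4% (14.1 to 21.2%) of those of library 2 had an Aqp1 UMI, against 0.0931% and 0.523% of G cells, whose depths are given above and compare with medians of 18254 and 20317 UMIs in Ery 2. Free RNA held 28.4 and 22.4 CPM of Aqp1, more than the level in Ery 6.

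Outside the erythroid lineage Aqp1 was highest in EC, at 508 and 293 CPM (425 to 602 and 250 to 341) in libraries 1 and 2. These rested on 133 UMIs of 20 cells and 166 UMIs of 26 cells. A single EC had 35 UMIs in library 1 and 32 in library 2, and the medians were 4 and 5 UMIs. At most 4.14 and 1.14 CPM of this could be free RNA.

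Cd44 ran the other way. It was at 47.3 CPM in HSPC, 40.0 in Ery 1, 17.3 in Ery 2, 4.94 in Ery 3, 2.26 in Ery 4, 1.03 in Ery 5 and 1.05 in Ery 6 of library 1, and at 46.1, 35.2, 16.7, 4.40, 1.04, 0.51 and 0.71 CPM in library 2. The step from Ery 1 to Ery 2 was a ratio of 0.43 and 0.47, and that from Ery 2 to Ery 3 of 0.29 and 0.26. Only 6 and 7 UMIs of Cd44 were counted in the 1218 and 1176 cells of Ery 6. Per cell it was slightly higher in Ery 1 than in HSPC, at 1.05 and 0.91 against 0.77 and 0.69 UMIs. Mo/KC had the highest level of Cd44 of all groups, 137 CPM (111 to 168) and 101 CPM (80.7 to 124), and G the next, 101 CPM (87.2 to 116) and 80.2 CPM (67.9 to 94.0), with intervals that overlapped in both libraries.

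Summed over the subclusters, 3 of the 8 members (Rhd, Rhag and Kel) were at least 2-fold higher in Eryb than in Ery in both libraries, where 5.12% of all genes over 10 CPM were. In library 1 on its own, without library 2, 6 members were, but the share of all genes in 1 library was not computed. Rhd was a gene by which the authors told Eryb from Ery, so its call does not stand apart from the naming of the groups. At least 2-fold lower were 2 members (Aqp1 and Cd44), against 50.9% of all genes. Without globin the higher members were 6, joined by Gypc, Xk and Ermap, against 14.4% of genes, and the lower were still Aqp1 and Cd44, against 26.3%. As mean UMIs per cell, no member was 2-fold higher, against 1.35%, and Aqp1 and Cd44 were lower, against 87.9%. The median log2 ratio of all genes was -1.03 and -1.60 in CPM, -0.40 and -0.38 without globin and -2.71 and -2.76 per cell, whereas that of the 8 members was 1.45 and 0.79, 2.08 and 2.01, and -0.23 and -0.37. Per cell, the median of the members therefore fell less than the median of all genes.

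Ordering the Ery and Eryb cells by their share of adult globin in 10 equal groups, in place of the 6 subclusters, gave similar courses. Rhd without globin was at 215 CPM in the first group of library 1, 4439 in the eighth and 3297 in the last, and at 213, 4240 and 3227 CPM in library 2. Gypc peaked 1 group before Rhd, at 708 and 678 CPM in the seventh group, and was at 356 and 333 CPM in the last. Rhag reached 1167 CPM in the last group of library 1 and 1131 CPM in the ninth group of library 2. Aqp1 was highest in the second group, at 71.1 and 62.7 CPM, and Cd44 in the first, at 37.7 and 33.4 CPM. The eighth group had a median of 50.96% adult globin in library 1 and 74.2% in library 2, so the libraries reached these levels at different globin shares.

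**Figure D4:**
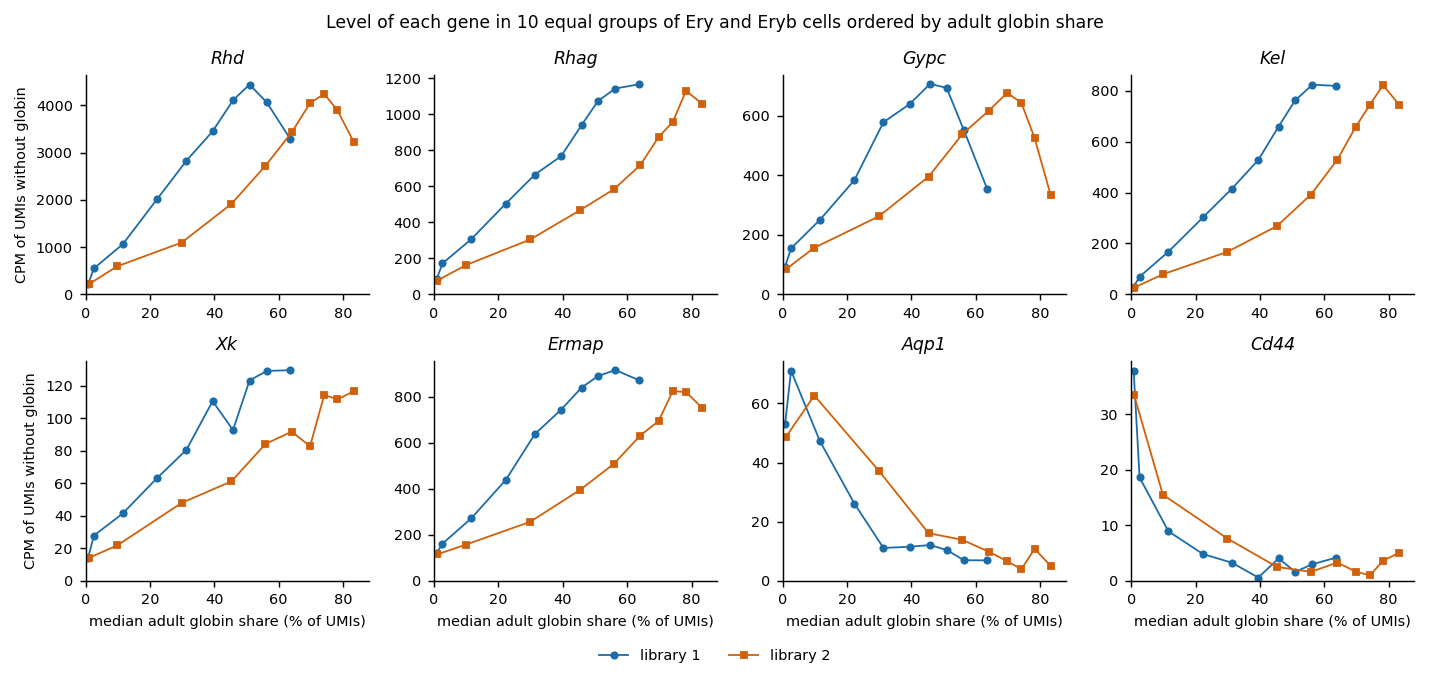
CPM without globin of each gene (vertical axis, linear) in 10 equal groups of Ery and Eryb cells ordered by their adult globin share, whose median is on the horizontal axis (percent of UMIs). Each point is 1 group of a library. Gypc and Rhd rise to a peak and fall in the cells richest in globin, Rhag, Kel, Xk and Ermap stay near their highest level, and Aqp1 and Cd44 fall early.

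EryP, the primitive erythroblasts of the yolk sac lineage, carried a different mixture. Rhd was at 492 and 382 CPM (448 to 538 and 344 to 423) in libraries 1 and 2, Rhag at 140 and 95.3 CPM, and Gypc at 47.0 and 42.5 CPM. Kel was at 207 CPM (179 to 238) and 153 CPM (130 to 180), Ermap at 211 and 135 CPM, and Xk at 78.3 CPM (61.6 to 98.1) and 46.6 CPM (34.0 to 62.4). Aqp1 and Cd44 had 1 UMI each in both libraries. Xk was thereby the only one of the 8 with a higher CPM in EryP than in Eryb in both libraries, by 1.51 and 1.60 times. The Gypc intervals, 34.3 to 62.8 and 30.5 to 57.6 CPM, held the most that free RNA could give, 39.3 and 37.4 CPM. Levels in barcodes with 1 to 50 UMIs were above those in EryP for Rhd (671 and 666 CPM) and Rhag (191 and 206 CPM). For Kel (190 and 141 CPM) and Xk (32.9 and 21.4 CPM) they were below. The intervals for Kel in these barcodes, 171 to 210 and 125 to 159 CPM, overlapped those in EryP. For Ermap the level in these barcodes was below that in EryP in library 1 (171 CPM) and above it in library 2 (172 CPM). How much of each level in EryP came from free RNA was not tested.

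At least 2-fold lower in EryP than in Eryb in both libraries were 4 members (Rhd, Rhag, Gypc and Aqp1), against 68.1% of all genes, and none was 2-fold higher, against 0.979%. With stricter limits on cells the count of lower members was 2, and the share of all genes under these limits was not computed. Without globin the count of lower members was 1 (Aqp1), against 18.2%, and of higher members 2 (Kel at 2.02 and 2.25 times, Xk at 4.10 and 3.74 times), against 5.65% of genes. Set beside Ery 6 alone, Kel without globin was nearly level in EryP, at 1.06 (0.91 to 1.23) and 1.11 times (0.93 to 1.32). Xk stayed higher there, at 2.85 (2.18 to 3.69) and 2.47 times (1.75 to 3.41). The call of Kel thus held for Eryb as a whole and not for Ery 6. Per cell, compared with Eryb, the lower members were again Rhd, Rhag, Gypc and Aqp1, against 75.6%, and none was higher, against 0.866%. The ratio of Kel to Rhd UMIs, chosen after the levels were seen, was 0.42 (0.35 to 0.50) and 0.40 (0.33 to 0.49) in EryP and between 0.13 and 0.23 in Ery 1 to Ery 6. That of Xk to Rhd was 0.16 and 0.12 in EryP and at most 0.080 in Ery 1 to Ery 6, but 0.20 and 0.14 in HSPC, where Kel to Rhd was 0.32 and 0.25 and Rhd was within the limit for free RNA. Both ratios were higher in EryP than in free RNA (0.28 and 0.21 for Kel, 0.049 and 0.032 for Xk).

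Outside the erythroid groups, Rhag, Kel and Ermap had intervals that held the limit for free RNA, or lay below it, in HSPC, G, Mo/KC and EC of both libraries, except for Rhag in EC of library 2, at 21.2 CPM (10.9 to 36.98) with a limit of 10.4 CPM. In Mk of library 1 this was so for Rhd, at 54.5 CPM with a limit of 49.1, whereas in library 2 Rhd was at 154 CPM (131 to 180) with a limit of 84.0. There, 51 of the 156 Rhd UMIs came from 1 cell, and Klf1, which marks erythroid cells, was at 113 CPM in Mk of library 2 and 41.6 CPM in library 1. In Hepa, Rhd was at 128 and 152 CPM, above the limits of 58.3 and 68.9 CPM, beside Klf1 at 153 and 221 CPM. The 37 Rhd UMIs of EC in library 1 included 29 of a single cell. Whether erythroid cells shared these droplets was not tested.

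**Figure D5:**
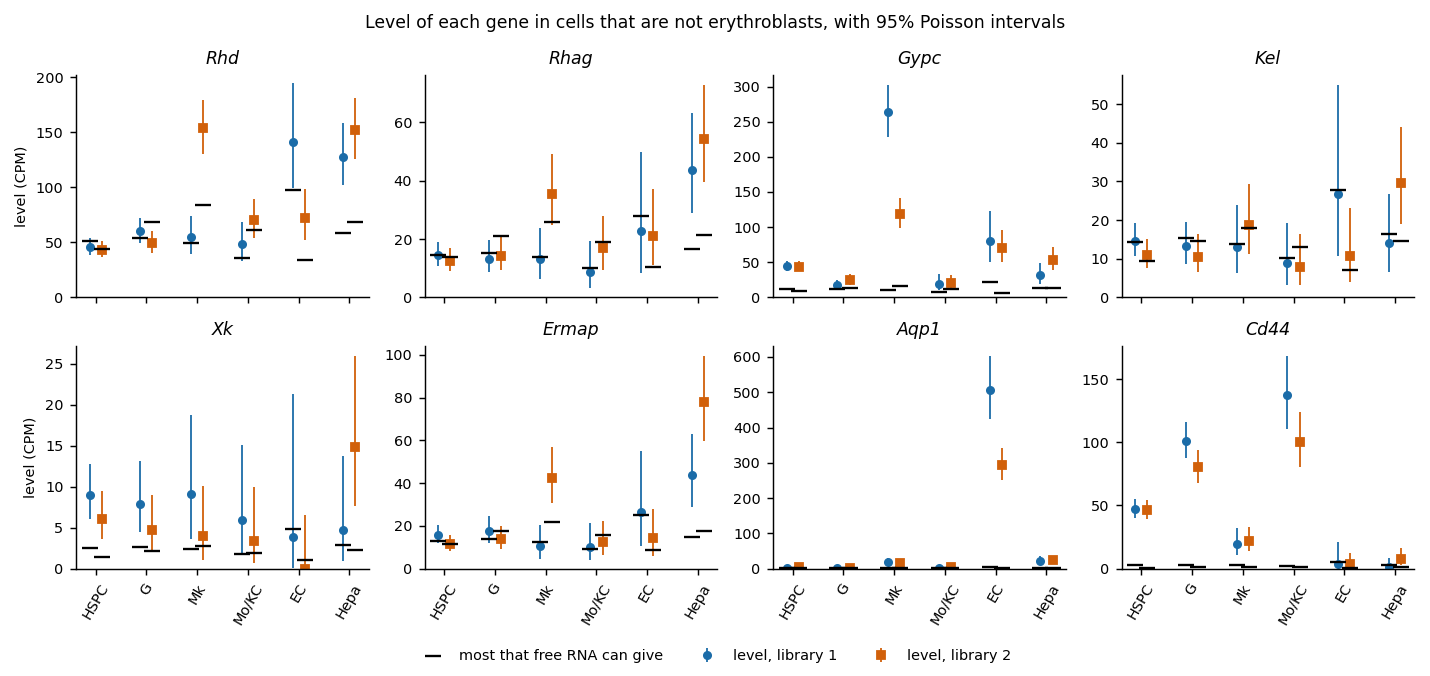
Level of each gene in CPM (vertical axis, linear) in HSPC, G, Mk, Mo/KC, EC and Hepa. Points are libraries with exact 95% Poisson intervals, and black dashes give the most that free RNA could contribute. Gypc in Mk, Aqp1 in EC and Cd44 in G, Mo/KC and HSPC stand above the dashes in both libraries.

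In Mk of both libraries Gypc was above the limit for free RNA. Its level there was 264 and 118 CPM (229 to 302 and 98.1 to 141) in libraries 1 and 2, with limits for free RNA of 11.02 and 16.0 CPM. In Mk, 51.9% and 33.3% of cells had a Gypc UMI at 3600 UMIs, against 5.19% and 6.99% of G cells, whose median depths were 10550 and 14769 UMIs against 5699 and 16944.5 in Mk. A total of 33 of the 79 Mk cells of library 1 were shallower and were left out of this share. Per Rhag UMI, there were 20.3 Gypc UMIs (10.8 to 43.0) in Mk of library 1 and 3.33 (2.28 to 4.98) in library 2, against 0.79 and 0.62 in free RNA. Gypc was also above the limit in EC, at 80.1 CPM (49.6 to 123) and 70.6 CPM (50.4 to 96.1).

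As a list of the same family, 29 further genes that carry or make blood group antigens or belong to the Rh family were followed, of which 19 were over 10 CPM. In both libraries 7 of them were at least 2-fold higher in Eryb than in Ery (among them Abcg2, Ache, Art4 and Cd59a), against 5.12% of all genes, and 2 were lower (Slc29a1 and Emp3), against 50.9%. Among the highest log2 ratios were those of Ackr1, the Duffy receptor for chemokines (3.63 and 3.26), and Slc4a1, the anion exchanger band 3 (3.62 and 2.94). The lowest were those of Emp3 (-1.82 and -2.74), Slc29a1, a nucleoside transporter (-1.01 and -1.61), and Slc14a1, the urea transporter of the Kidd antigens (-0.12 and -0.69). Without globin 15 of the 19 were higher, against 14.4% of all genes, and 1, Emp3, was lower, against 26.3%.

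The genes most like each member over the 13 groups were named by Pearson's r of log2(CPM + 1), taking the lower of both libraries. The 13 groups share libraries, cells of 1 lineage and their globin share, so r is a description. For Rhd these were Rhag (0.985), Urod (0.979) and Cldn13 (0.977), and for Rhag Cldn13 (0.989), Urod (0.986) and Prdx2 (0.986). For Kel they were Fech (0.978), Fam210b (0.974) and Trim10 (0.967), of which Fech and Urod are enzymes of heme synthesis. For Ermap they were Rhag (0.970), Slc30a10 (0.969) and Ank1 (0.969), and for Xk Slc6a9 (0.906), Art4 (0.890) and Slc22a4 (0.883). Gypc was most like Tom1l1 (0.911), Tal1 (0.910) and Ssx2ip (0.905), Aqp1 most like Crip2 (0.891), Myh10 (0.823) and Ap1b1 (0.812), and Cd44 most like Ptpn6 (0.959), Rac2 (0.956) and Pycard (0.948).

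The members lie on 6 chromosomes. In GENCODE vM21 (GRCm38) Rhd lies on chromosome 4 from 134864536 to 134896172 and Ermap on the same chromosome from 119175457 to 119190011, while Kel (41686330 to 41704339) and Aqp1 (55336432 to 55348555) share chromosome 6. Rhag is on chromosome 17 (40811126 to 40840754), Cd44 on chromosome 2 (102811141 to 102901665), Xk on chromosome X (9272756 to 9313250) and Gypc on chromosome 18 (32528322 to 32560034). Genes on the same strand overlap Kel (Gm37527) and Xk (H2al1m), and reads in the shared stretch cannot be assigned with certainty.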

How the data were processed

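The authors deposited raw UMI counts per gene and barcode, as called and as all barcodes, and a table of cell types and subclusters. Per the submitters' processing notes the reads were handled with Cell Ranger 2.1.1 on mm10 and clustered with Seurat 3.2.0, while a matrix header names version 3.0.0. Cells of the table were used as given, and doublets were not removed further. UMIs were summed per group and library in Python (version 3.11.15) with scipy (1.17.1), pandas (2.3.3) and numpy (2.4.6), and figures were drawn with matplotlib (3.10.9). The script was tested on simulated data. Intervals were exact Poisson, and for shares Clopper-Pearson, at 95%. Free RNA was read from barcodes with 1 to 50 UMIs. Shares were taken after thinning to 3600 UMIs. A gene counted as changed at 2-fold or more in both libraries, among genes over 10 CPM. The members were reported in full, with the 3 genes most alike and, of the list of 29 blood group and Rh family genes, the 3 highest and the 3 lowest, of which 1 gene is not reported here. Members and lists were chosen with earlier results of these data known. All clusters were built from variable genes of the same counts, which may include members. Alternatives were other scales, thresholds, filters on cells, free RNA subtraction and each library alone.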

Additional observations from a re-analysis of the deposited data

Results flagged for a closer look

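Barcodes that were not called as cells but held at least 1000 UMIs and 200 genes were not part of any comparison. The 168 such barcodes of library 1 held 6 of the genes above the level of the free RNA. Rhd was at 1592 CPM in them against 671 CPM in free RNA, Rhag at 452 against 191, and Gypc at 253 against 150. Kel was at 278 CPM against 190, Xk at 101 against 32.9 and Ermap at 417 against 171. In the 3311 such barcodes of library 2 none of the 6 was flagged, with Rhd at 579 CPM against 666 in free RNA and Xk at 22.1 against 21.4. Why the libraries differ in these barcodes was not tested.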

How the results depend on the processing

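No paired analysis was possible because both libraries belong to 1 group and no groups of samples were compared. The number of members at least 2-fold higher in Eryb than in Ery was 3, and became 6 without globin and 0 per cell. It ranged from 3 to 6 when either library was left out. The number lower in Eryb was 2 under each alternative run. The number lower in EryP than in Eryb was 4, and became 2 with at least 1000 genes and under 10% mitochondrial UMIs per cell, 1 without globin and 2 at 3-fold. The number higher in EryP was 0, and 2 without globin. Members at 50% of their maximum by Ery 2 numbered 2 in library 1, 8 per cell and 6 at 25% of the maximum, and in library 2 they numbered 6, but 2 without globin and 2 at 75%. Shares of all genes were not computed with 1 library left out, with the filter on cells or at 3-fold. Nor were they computed for the positions on other scales or at 25% and 75%. Per cell the log2 ratio of Eryb to Ery in library 1 turned to -0.34 for Gypc, -0.21 for Xk and -0.26 for Ermap, and without globin that of Cd44 in EryP turned to 0.081, on 1 UMI. These turns follow from the change of denominator, whereas the cause of the change with the filter on cells was not tested. The free RNA level of a gene in a library moved in 15 cases and stayed in 1 when read from barcodes with 51 to 100 UMIs. With barcodes of 1 to 20 UMIs it moved in 2 cases and stayed in 14. All limits for free RNA rest on barcodes with 1 to 50 UMIs and would change with this choice. Depth limits Aqp1 and Cd44 in late cells and all genes in EC, Hepa, Mk and Mo/KC, which hold at most 79 cells per library.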
